A study of Rattus norvegicus with 6 samples.

Results

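The genes described here are the heat shock protein and DnaJ chaperone genes of the rat, measured by RNA-seq in the amygdala 1 h after an acute ethanol injection. Members were taken by symbol, as genes named Hspa, Hspb, Hspd, Hspe or Hsph, or Dnaja, Dnajb or Dnajc, followed by a number. Of 38445 genes in the count tables, 134 had such a symbol, 72 of them annotated as protein coding and 62 as pseudogenes. A gene was kept when it had 10 or more counts in at least 3 of the 6 libraries, and 70 genes passed, 63 protein coding and 7 pseudogenes. Adult male Sprague Dawley rats (labelled wild type) received an intraperitoneal injection of saline (Control) or of ethanol at 1 g/kg (Ethanol). There were 3 libraries per group, each made from the amygdala RNA of 2 rats combined, so the difference between those rats is not visible. The labels name no pairing between a Control and an Ethanol library of the same number (1 to 3).

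Heat shock proteins bind other proteins that are unfolded, newly made or damaged and keep them from aggregating. HSP70 proteins (Hspa genes) do this in a cycle driven by ATP, DnaJ proteins deliver the client and start ATP hydrolysis through their J domain, and HSP110 proteins exchange the nucleotide. Small heat shock proteins (Hspb genes) hold unfolded clients without ATP, and HSP60 with HSP10 (Hspd1 and Hspe1) forms the folding chamber of the mitochondrion. A part of the family is switched on by heat shock factor 1 (Hsf1) when unfolded proteins accumulate. In neurons, Hspa8 with the DnaJ proteins auxilin and cysteine string protein also takes apart clathrin coats and keeps synaptic vesicle proteins folded.

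Chaperone messages were abundant and their levels were close in the Control and Ethanol libraries. Together the 70 genes took between 0.628% and 0.677% of the assigned reads of a library. Of the 69 genes that entered the test, 0 passed the adjusted threshold, and 62 had an estimated change of less than 0.2 on the log2 scale. The genes with the lowest unadjusted p, Hspa1l and Dnajc21, were both lower in the Ethanol libraries. The heat-inducible genes of the family did not separate the groups, and 4 of them carry a 3-unit heat shock element within 250 bases of their start site. The sequences of 7 promoters are given first, and the values follow in the order of the proteins' roles.

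Heat shock factor 1 binds repeats of the 5-base unit nGAAn in alternating orientation, and the ER stress element is bound by the factors that raise chaperones of the endoplasmic reticulum (ER). The 250 bases before the start site, from RefSeq on build GRCr8, could be matched to 50 of the protein-coding members, and the same window of 19005 protein-coding genes served as the comparison. Both strands were searched. The 2-unit elements GAANNTTC and TTCNNGAA were present in 12 members (24.0%) and 7 members (14.0%), against 6.56% and 6.71% of all promoters. The 3-unit element, GAANNTTCNNGAA or TTCNNGAANNTTC, contains both 2-unit forms and was present in 4 members (8.0%: Hspa8, Hsph1, Hspd1 and Hspe1), against 0.463% of all promoters. The ER stress element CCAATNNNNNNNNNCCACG, which contains a CCAAT box, was found in Hspa5 and Dnajc3, 4.0% of the members against 0.0947% of all promoters. CCAAT alone stood in 38.0% of the members and 35.5% of all promoters, and TATAAA, read on the gene's strand only, in 8.0% and 8.23%. These are matches of letters and not measured binding. The window of Hspa1a held none of these heat shock letters, which says only that they are not within these bases.

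The promoters shown are those with a 3-unit element, those of 2 heat-inducible genes with 2-unit elements (Hspb1 and Dnajb1), and both with an ER stress element. Each ends at the base before the start site, and capitals mark the heat shock elements, or in Hspa5 and Dnajc3 the ER stress element. Hspd1 and Hspe1 lie head to head, so the element printed for Hspe1 also stands, on the other strand, in the window of Hspd1. The windows are chr8:50080264-50080513, plus strand (Hspa8), chr12:10427118-10427367, plus strand (Hsph1), chr9:64084077-64084326, plus strand (Hspe1), chr12:26432302-26432551, minus strand (Hspb1), chr19:41431142-41431391, minus strand (Dnajb1), chr3:38452766-38453015, plus strand (Hspa5) and chr15:102432417-102432666, plus strand (Dnajc3).
Hspa8: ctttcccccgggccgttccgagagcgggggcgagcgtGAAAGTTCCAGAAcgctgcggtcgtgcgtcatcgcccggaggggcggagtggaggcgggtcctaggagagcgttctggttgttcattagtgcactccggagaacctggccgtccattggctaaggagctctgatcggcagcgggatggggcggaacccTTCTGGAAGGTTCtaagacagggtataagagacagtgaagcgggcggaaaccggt
Hsph1: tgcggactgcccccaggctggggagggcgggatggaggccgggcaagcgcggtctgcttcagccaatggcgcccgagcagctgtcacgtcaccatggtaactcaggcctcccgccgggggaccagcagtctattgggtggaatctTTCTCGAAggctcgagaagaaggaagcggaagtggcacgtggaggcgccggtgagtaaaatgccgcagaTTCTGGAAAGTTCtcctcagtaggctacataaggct
Hspe1: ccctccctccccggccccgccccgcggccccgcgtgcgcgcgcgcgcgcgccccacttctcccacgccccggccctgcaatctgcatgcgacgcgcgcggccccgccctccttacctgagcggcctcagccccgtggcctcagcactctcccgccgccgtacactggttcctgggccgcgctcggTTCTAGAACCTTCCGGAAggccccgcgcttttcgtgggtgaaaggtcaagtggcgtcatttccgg
Hspb1: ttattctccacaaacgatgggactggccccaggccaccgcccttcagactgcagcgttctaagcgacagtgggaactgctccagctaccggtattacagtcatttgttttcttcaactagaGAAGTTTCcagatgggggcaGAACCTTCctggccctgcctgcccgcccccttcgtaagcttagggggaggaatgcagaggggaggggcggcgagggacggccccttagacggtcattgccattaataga
Dnajb1: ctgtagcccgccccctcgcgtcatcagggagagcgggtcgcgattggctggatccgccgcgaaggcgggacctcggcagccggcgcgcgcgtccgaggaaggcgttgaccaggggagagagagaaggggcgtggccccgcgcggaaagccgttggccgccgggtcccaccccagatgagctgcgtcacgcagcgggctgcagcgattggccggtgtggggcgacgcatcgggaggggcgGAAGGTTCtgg
Hspa5: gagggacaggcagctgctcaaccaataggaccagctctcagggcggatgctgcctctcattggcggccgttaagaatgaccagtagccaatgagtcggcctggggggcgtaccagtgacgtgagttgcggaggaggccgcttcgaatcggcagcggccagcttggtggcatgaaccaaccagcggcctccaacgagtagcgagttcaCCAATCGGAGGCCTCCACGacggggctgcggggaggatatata
Dnajc3: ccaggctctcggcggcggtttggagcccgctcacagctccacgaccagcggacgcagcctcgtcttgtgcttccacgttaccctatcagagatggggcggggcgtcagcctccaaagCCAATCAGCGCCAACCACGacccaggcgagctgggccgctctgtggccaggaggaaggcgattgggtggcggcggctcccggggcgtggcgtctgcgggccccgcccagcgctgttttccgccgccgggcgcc
Hspa8 holds a pair of 3-unit elements, 213 and 55 bases before its start, and that of Hsph1 begins 36 bases before. In Hspe1 overlapping 3-unit matches begin 65 and 60 bases before the start, and the single element of Dnajb1 begins 11 bases before.

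**Figure D1:**
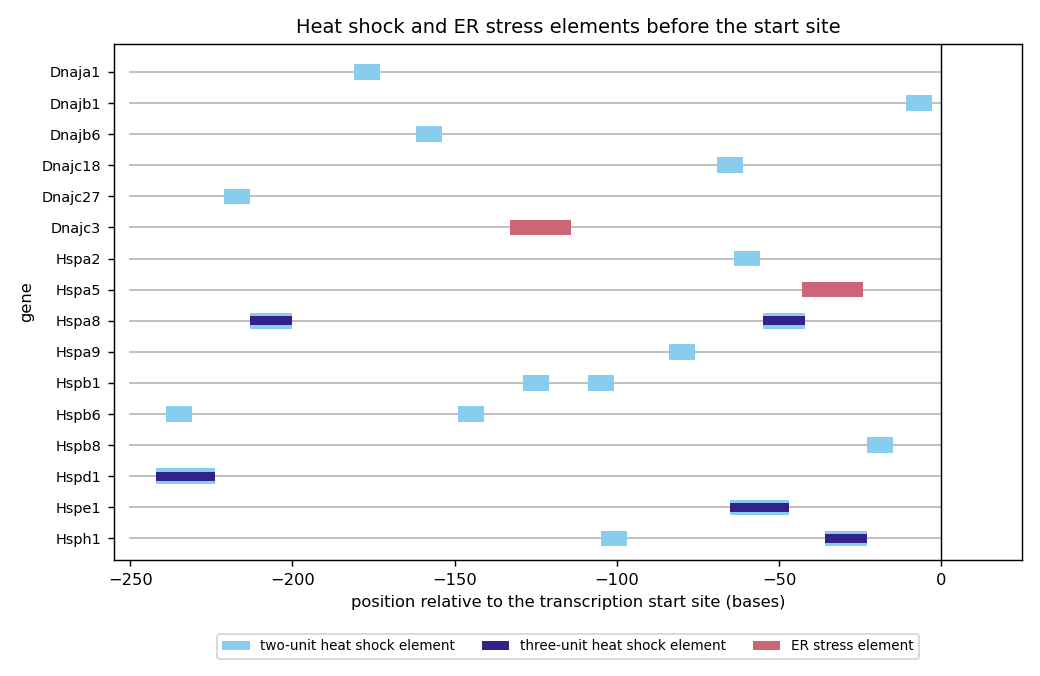
Positions of heat shock elements (light blue, 2-unit; dark blue, 3-unit) and ER stress elements (red) in the 250 bases before the start site of each chaperone gene that holds one. The horizontal axis is the distance to the start site in bases; 3-unit elements stand in Hspa8, Hsph1, Hspd1 and Hspe1, and ER stress elements in Hspa5 and Dnajc3.

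The 6 libraries held between 62576504 and 70755739 assigned reads, so that 3 counts, the limit that a count of 0 allows, correspond to between 0.0422 and 0.0473 CPM, the count scaled to the library's reads after TMM scaling. Neuron markers were high in every library, with a summed level of 3727 to 5118 CPM, and 4 of the 6 markers listed for amygdala nuclei were tested, with a summed level of 44.15 to 82.45 CPM (Npy was listed at 0 in every library, and Tac2 was not matched). Choroid plexus markers differed widely: their summed level was 544 to 1188 CPM in the Control libraries, 14.02 and 15.75 CPM in Ethanol 1 and Ethanol 2, and 507.1 CPM in Ethanol 3. Of the 11 choroid plexus genes tested, 5 (45.5%) had an unadjusted p below 0.05, all lower in the Ethanol libraries. Of all genes tested, 2.58% were lower at that p. Otx2 was near 0 in every library. Of 10 markers of motile cilia and ependyma, 8 (80%) were likewise lower at that p. The summed levels of the 10 were 60.54 to 84.78 CPM in the Control and 50.27 to 52.54 CPM in the Ethanol libraries (Rsph4a was listed at 0). The libraries also differed in oligodendrocyte markers, from 3414 CPM in Control 2 to 9504 CPM in Ethanol 3. In bulk tissue fewer cells of a type and less RNA per cell cannot be told apart.

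Levels of different genes were compared as CPM per kilobase of exon, averaged over the 6 libraries. Hspa8, the cytosolic HSP70 that is made at all times and is further raised by heat, was the most abundant member at 377 CPM per kb. Dnaja1, a J protein that works with it, followed at 183 and Hspa5, the HSP70 of the ER, at 172 CPM per kb. Dnaja2 (115), Hsph1 (112), Hspe1 (100.1), Hspd1 (95.8) and Dnajc5 (89.5 CPM per kb), the cysteine string protein of synaptic vesicles, came next. At the other end stood the stress-inducible Hspa1a at 0.0948 CPM per kb and its neighbour Hspa1l at 0.109. The small heat shock genes lay between 0.0983 (Hspb7) and 14.1 CPM per kb (Hspb6). The highest level per length among the DNAJB genes was that of Dnajb2 (50.7 CPM per kb), a J protein known from neurons.

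**Figure D2:**
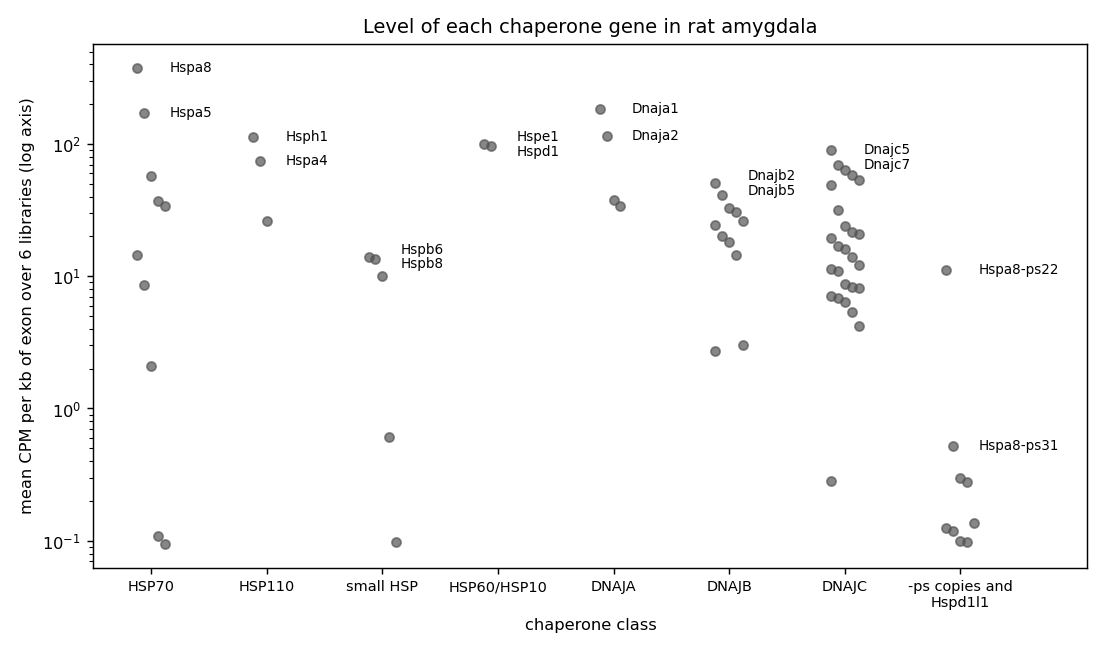
Mean level of each of the 70 genes over the 6 libraries in CPM per kb of exon, on a log axis, by class (1 point per gene, with the 2 highest of each class named). Hspa8 is at 377 and Hspa1a at 0.0948 CPM per kb.

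The comparison of the Ethanol with the Control libraries asked which genes respond to acute ethanol in the amygdala. The quasi-likelihood test of edgeR, adjusted by Benjamini-Hochberg across all 18141 genes, left 0 genes (background 0%) under the adjusted threshold of 0.2, and the lowest adjusted p of any gene was 0.818. At an unadjusted p below 0.05 stood 2 of the 69 chaperone genes (2.9%), both lower in the Ethanol libraries, where the background was 4.15% of all genes (2.58% lower and 1.57% higher). The share of the chaperone genes was thus not above the background. At the same adjusted threshold DESeq2 called 75 genes (0.413%) and edgeR's likelihood ratio test 77 (0.424%), with 0 chaperone genes among either. At an unadjusted p below 0.05, each of these tools gave 1 chaperone gene, Dnajc21 in DESeq2 (background 3.56%) and Hspa1l in the likelihood ratio test (background 3.81%). With limma-voom 0 genes passed the adjusted threshold, and Hspa1l and Dnajc21 were again the 2 chaperone genes at an unadjusted p below 0.05 (background 4.3%).

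Most chaperone genes were measured closely enough to limit the size of a change. The 95% confidence interval of the fold change lay within 1.5-fold in either direction for 56 of the 69 genes. The same held for 73% of all genes tested. For 42 of the 69 the interval lay within 1.25-fold, a bound for which the share of all genes was not computed. The median log2 fold change (Ethanol minus Control) was 0.008 for the members and 0.006 for all genes tested, and 89.9% of the members were within 0.2 of 0, against 81.9% of all genes. By sign, 39 members were higher and 30 lower. When scaled by library size alone the split was 27 higher and 42 lower, with the median of all genes at -0.02. In 3 members, all lower after ethanol, the 3 Ethanol libraries lay outside the range of the 3 Control libraries (4.35%, against 8.85% of all genes in either direction and 5.19% of all genes lower). These were Hspa1l, Dnajc21 and Dnajc25.

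**Figure D3:**
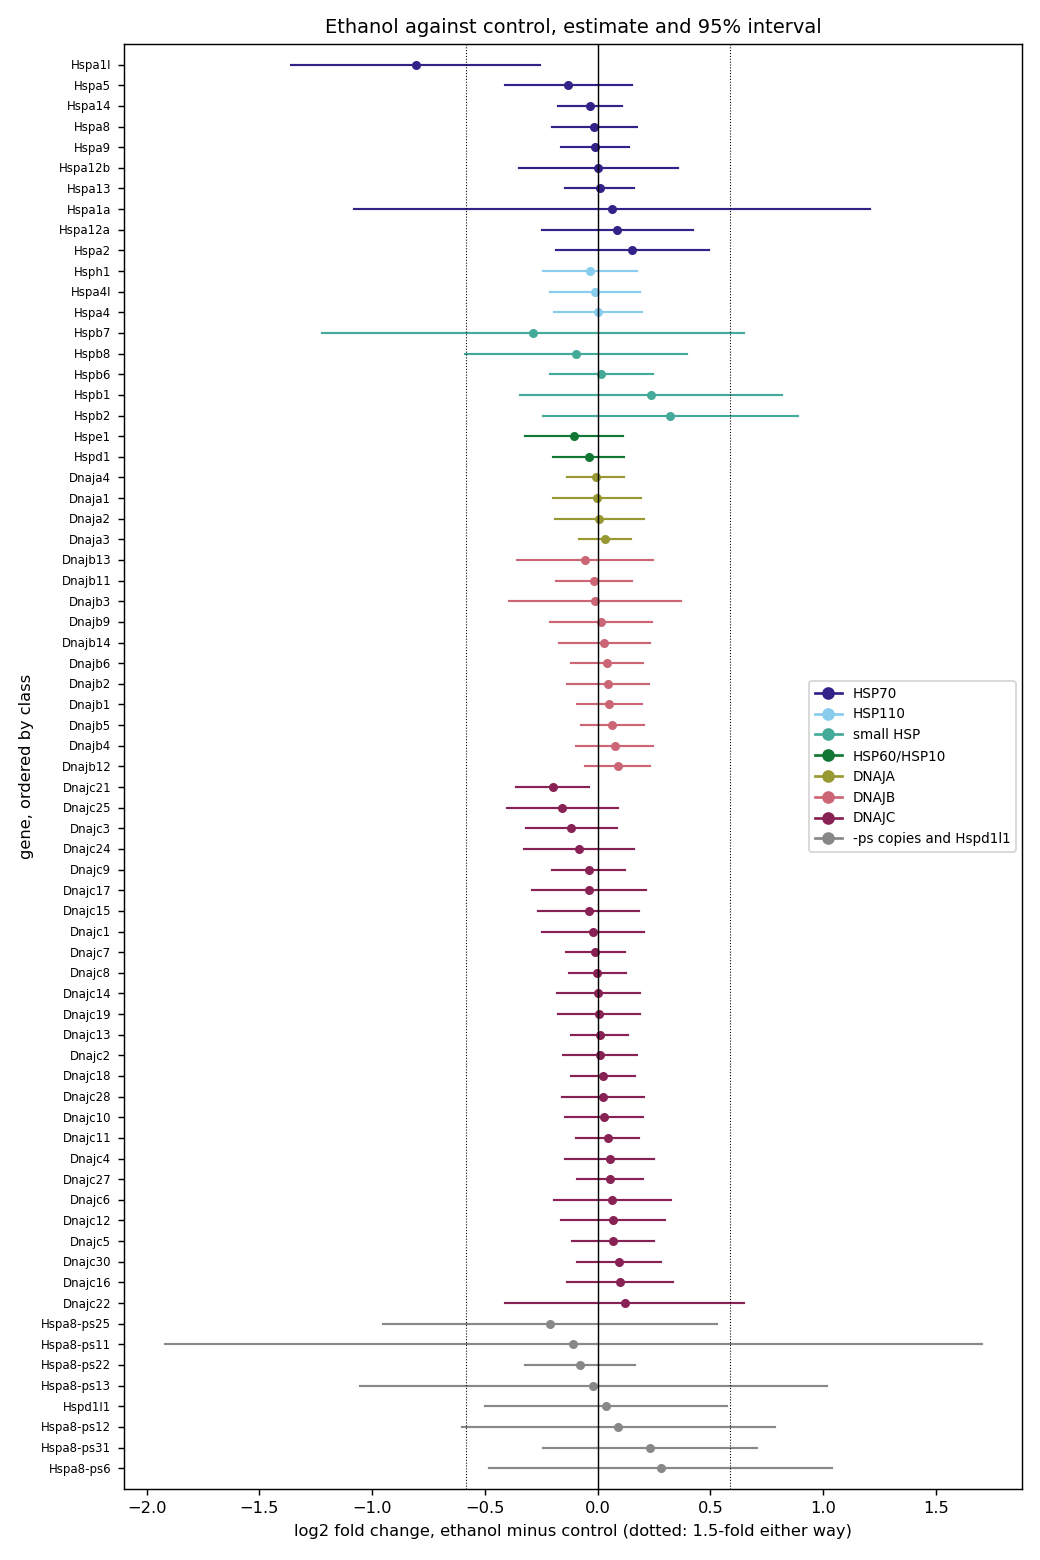
Log2 fold change (Ethanol minus Control) of each of the 69 tested chaperone genes with its 95% confidence interval from edgeR's quasi-likelihood fit, coloured by class; dotted lines mark 1.5-fold in either direction. The intervals of Hspa1l and Dnajc21 do not cross 0, and those of 56 genes lie between the dotted lines.

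Among the 10 tested HSP70 genes, 1 had an unadjusted p below 0.05, where the background was 4.15% of all genes. The median log2 fold change of the 10 was 0.00 (-0.004), with values from -0.81 to 0.15. Hspa8 (chr8:44989401-44993261 on Rnor_6.0, gene 24468) measured 764, 799 and 825 CPM in Control 1 to 3 and 807, 825 and 732 CPM in Ethanol 1 to 3. The groups overlapped, and both the highest and the lowest value came from Ethanol libraries. Its log2 fold change was -0.01 ± 0.08 (SE), with a 95% interval of -0.20 to 0.18. Hspa5, which also senses unfolded proteins in the ER and is known as BiP, measured 423, 411 and 550 CPM in Control and 446, 394 and 424 CPM in Ethanol libraries. Control 3 stood above the other 5 libraries, and the log2 fold change was -0.13 ± 0.12 (SE), or 0.015 without Control 3. Hspa9, the HSP70 of the mitochondrial matrix, was at 163 ± 0.6 CPM (SD, n = 3) in Control and 162 ± 10.8 CPM in Ethanol libraries.

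Hspa1l, an HSP70 best known from the testis, had the lowest fold change of the family on few reads. Control 1 to 3 had 22, 27 and 27 counts, and Ethanol 1 to 3 had 13, 13 and 17 counts. All 3 Ethanol libraries were below all 3 Control libraries. In scaled values this was 0.381 ± 0.0447 CPM (SD, n = 3) against 0.216 ± 0.0242 CPM. The log2 fold change was -0.81 ± 0.24 (SE), with an unadjusted p of 0.0101 and an adjusted p of 1 in edgeR's quasi-likelihood test. With DESeq2 the unadjusted p was 0.0824. Choroid plexus and cilia markers moved the same way between the groups (values above), and their part in this difference was not tested. Hspa1l (chr20:4879998-4965191, plus strand, gene 24963) overlaps Hspa1a (chr20:4877638-4880112, minus strand, gene 24472) by 115 bases on the opposite strand. The counts were made by strand, and reads in more than 1 place were not counted.

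Hspa1a, the classic heat- and stress-inducible HSP70, was nearly silent in this count table. Control 1 to 3 had 6, 19 and 21 counts, and Ethanol 1 to 3 had 10, 13 and 25 counts. In CPM the lowest library was a Control and the highest an Ethanol library, and the other 2 Control libraries lay above the other 2 Ethanol libraries. Its log2 fold change was 0.06 with a 95% interval of -1.08 to 1.21, an interval that holds 1.5-fold in either direction. Its copy Hspa1b (gene 108348108) had 0 counts in every library, which allows up to 0.0473 CPM. Reads shared by the copies were left out of the counts, so both values may be too low, and by how much was not tested.

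The HSP110 genes, the nucleotide exchange partners of HSP70, showed 0 of 3 genes at an unadjusted p below 0.05 and log2 fold changes from -0.03 to 0.00 (0.001). Hsph1, which is heat-inducible, measured 377, 395 and 394 CPM in Control and 399, 407 and 335 CPM in Ethanol libraries. Ethanol 3 was the lowest library, and 2 Ethanol libraries were the highest. The log2 fold change was -0.03 ± 0.09 (SE). Hspa4l, a close relative also called Apg-1, was at 252 ± 22 CPM (SD, n = 3) in Control and 251 ± 16.4 CPM in Ethanol libraries.

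The mitochondrial pair Hspd1 (HSP60) and Hspe1 (HSP10) is transcribed from start sites that face away from each other. On Rnor_6.0, the build of the counts, 43 bases lie between the genes (chr9:61680529-61691202, minus strand, and chr9:61691246-61724948, plus strand). On GRCr8 the start sites are further apart, and the promoter windows of Hspd1 (chr9:64084038-64084287) and Hspe1 (chr9:64084077-64084326) both lie between them. Hspd1 measured 228, 216 and 232 CPM in Control and 230, 221 and 207 CPM in Ethanol libraries. Hspe1 measured 61.6, 52.6 and 63 CPM in Control and 53.5, 50.7 and 60.4 CPM in Ethanol libraries. In both genes the groups overlapped. Their log2 fold changes were -0.04 ± 0.07 (SE) and -0.11 ± 0.09 (SE), with unadjusted p-values of 0.579 and 0.29 in edgeR's quasi-likelihood test. Across the 9 mitochondrial chaperone genes, including the import-motor J proteins Dnajc15 and Dnajc19, 0 had an unadjusted p below 0.05 and the median was 0.01 (0.005).

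The 11 tested heat-inducible genes (Hspa1a, Hspb1, Hsph1, Dnajb1, Dnaja1, Hspd1, Hspe1, Hspa8, Hspa4l, Dnajb4 and Hspb8) had 0 members at an unadjusted p below 0.05 and a median log2 fold change of -0.01, with a range from -0.11 to 0.24. Dnajb1, the inducible J protein called HSP40, measured 57.3, 54.1 and 61.3 CPM in Control and 59.8, 60.4 and 58.9 CPM in Ethanol libraries. All 3 Ethanol values fell inside the Control range. Its log2 fold change was 0.05 ± 0.06 (SE), with a 95% interval of -0.09 to 0.20. Dnaja1 was at 336, 327 and 337 CPM in Control and 347, 355 and 297 CPM in Ethanol libraries, and Dnajb4 was at 104, 92.8 and 104 CPM against 111, 109 and 97.9 CPM. In each of them Ethanol 1 and Ethanol 2 were the 2 highest libraries and Ethanol 3 was below 2 or more Control libraries. Grouped by sequence instead, the 14 members with a heat shock element of either length had a median of 0.01 (0.007) and a range from -0.11 to 0.24. The 36 members without one had a median of 0.00 (0.004) and a range from -0.81 to 0.10.

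**Figure D4:**
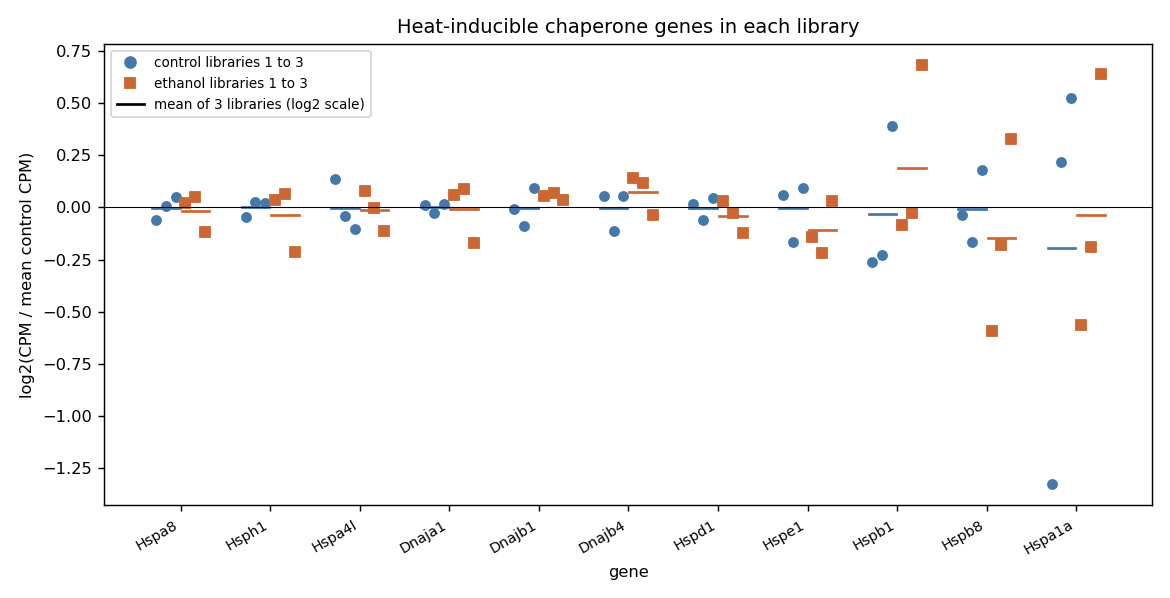
Level of each of the 11 tested heat-inducible genes in every library, as log2 of CPM over the mean of the Control libraries (circles, Control; squares, Ethanol; libraries 1 to 3 from left to right; lines, mean of 3). The groups overlap in every gene, and Hspa1a, with 6 to 25 counts, spreads most.

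The small heat shock genes had a median SE of 0.24, against 0.09 for all members. Of the 5 tested, 0 had an unadjusted p below 0.05, the median log2 fold change was 0.02 and the range -0.29 (Hspb7) to 0.32 (Hspb2). Hspb1, the inducible HSP27 protein known from astrocytes and blood vessels, measured 6.82, 6.97 and 10.7 CPM in Control and 7.71, 8.01 and 13.1 CPM in Ethanol libraries. Control 3 and Ethanol 3 were the high libraries of their groups. The log2 fold change was 0.24 ± 0.25 (SE) with a 95% interval of -0.34 to 0.82, and it was -0.05 without Ethanol 3. Hspb8, which forms a complex with Bag3 that sends aggregated clients to autophagy, measured 24.4, 22.3 and 28.3 CPM in Control and 16.6, 22.1 and 31.4 CPM in Ethanol libraries. Ethanol libraries were both the lowest and the highest, and the log2 fold change went from -0.10 to -0.37 when Ethanol 3 was left out (unadjusted p = 0.0422 and adjusted p = 0.546 in edgeR's quasi-likelihood test).

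Hspb6, a small heat shock protein of smooth muscle and glia, had the highest level per length of the class, at 18.3 ± 0.911 CPM (SD, n = 3) in Control and 18.5 ± 2.26 CPM in Ethanol libraries. Hspb2, a muscle form, had 32, 39 and 54 counts in Control and 47, 52 and 57 counts in Ethanol libraries. In scaled values Control 3 was the highest of the 6 libraries (0.852 CPM), and without it the log2 fold change went from 0.32 to 0.60 (unadjusted p = 0.0306 and adjusted p of 1 in edgeR's quasi-likelihood test). Leaving out each library in turn gave values from 0.16 to 0.60. The gene starts 315 bases from Cryab (alpha B-crystallin), a small heat shock gene outside the symbol rule. Cryab and Bag3 were named after their values were seen. Cryab measured 27.9, 17.6 and 24.3 CPM in Control and 19.4, 29.5 and 47.5 CPM in Ethanol libraries, with a log2 fold change of 0.47 ± 0.31 (SE) and an unadjusted p of 0.168. Without Ethanol 1 it was 0.73 (unadjusted p = 0.0208 and adjusted p of 1 in edgeR's quasi-likelihood test). Bag3 measured 14.3, 17.4 and 17.6 CPM in Control and 15, 19.4 and 23.8 CPM in Ethanol libraries. Its log2 fold change was 0.24 (unadjusted p = 0.187 in edgeR's quasi-likelihood test). It was 0.39 without the same library (unadjusted p = 0.0222 and adjusted p of 1 in that test). Of all genes in the fit without Ethanol 1, 3.57% had an unadjusted p below 0.05. Leaving out any other library gave neither Cryab nor Bag3 such a p. In both genes Ethanol 1, the library left out, was the lowest Ethanol library and lay within the Control range. Ethanol 2 lay above that range, and Ethanol 3 was the highest library. Leaving out Ethanol 1 therefore raises the Ethanol mean of both genes.

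Cell type markers differed in the same libraries. Astrocyte markers (5 of 5 tested, 0 with an unadjusted p below 0.05) summed to 3358 to 3992 CPM in Control and 3395 to 4573 CPM in Ethanol libraries. Their highest sums were in Ethanol 3 and Control 3, as for Hspb1. Singly this held for Gfap, Aqp4 and Aldh1l1, while Slc1a3 was highest in Control 3 and Slc1a2 in Control 2. The summed mural and smooth muscle markers (8 of 8 tested, 0 at that p) were also highest in these libraries, at 142.3 CPM in Control 3 and 122 CPM in Ethanol 3. Summed endothelial markers (4 of 5 tested, 0 at that p) were highest in Control 1, at 207.1 CPM. Oligodendrocyte markers (6 of 6 tested, 0 at that p) summed to 3414 to 8178 CPM in Control and 4214 to 9504 CPM in Ethanol libraries, with Control 2 lowest and Ethanol 3 highest, as for Cryab. Neuron markers (7 of 7 tested, 0 at that p) had their lowest sum in Ethanol 3, at 3727 CPM. Singly, Snap25, Syt1 and Gad1 were lowest in Ethanol 3. Slc17a7, Rbfox3, Gad2 and Ppp1r1b were lowest in a Control library, and Ppp1r1b was highest in Ethanol 3. No marker of the astrocyte, oligodendrocyte and neuron lists was at 0. The part of any of these cell types in the spread of the small heat shock genes was not tested.

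**Figure D5:**
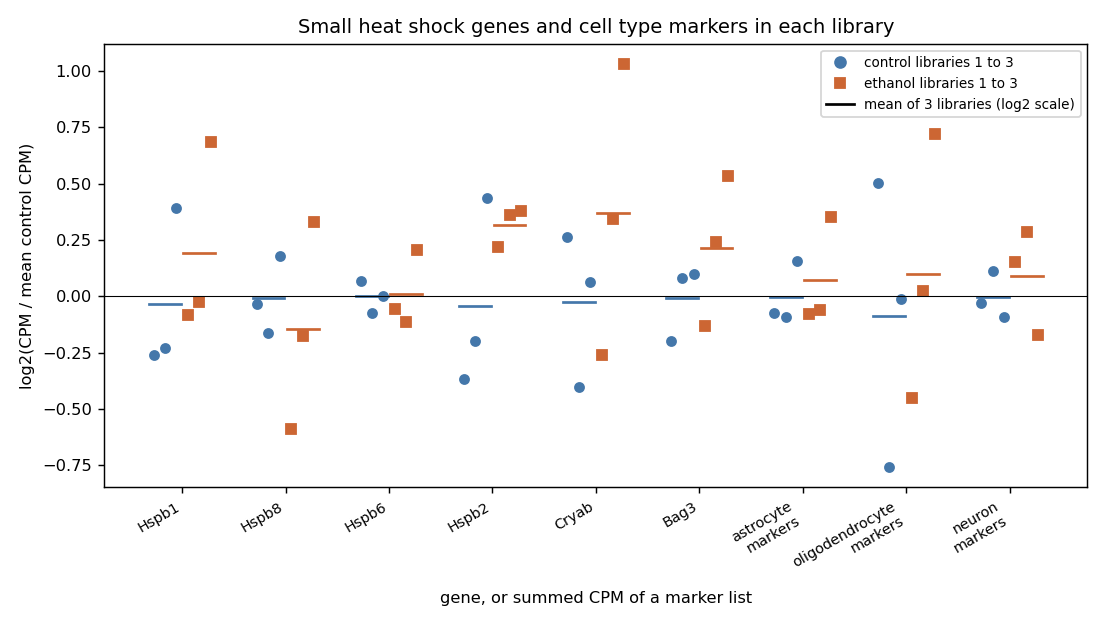
Level of 4 small heat shock genes, Cryab, Bag3 and the summed markers of 3 cell types in every library, as log2 of CPM over the mean of the Control libraries (circles, Control; squares, Ethanol; libraries 1 to 3 from left to right; lines, mean of 3). Ethanol 3 is the highest library for Hspb1, Hspb8, Hspb6, Cryab, Bag3 and both summed glial marker lists and the lowest for the summed neuron markers.

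The J proteins of types A and B, which carry general clients to HSP70, stayed within narrow limits. Of 4 DNAJA and 11 DNAJB genes tested, 0 had an unadjusted p below 0.05, and all log2 fold changes lay between -0.06 and 0.09. Dnaja3, the mitochondrial form, measured 91.3, 89.5 and 88.4 CPM in Control and 93.5, 91 and 90.6 CPM in Ethanol libraries. The groups overlapped, although all 6 values lay close together, and the log2 fold change was 0.03 ± 0.05 (SE). Dnajb2 was at 160 ± 8.8 CPM (SD, n = 3) in Control and 165 ± 13.8 CPM in Ethanol libraries. Dnajb12, a J protein of the ER membrane, had the largest change of its class and measured 50.2, 55.5 and 50.4 CPM in Control against 54.4, 57.1 and 54.7 CPM in Ethanol libraries. Control 2 lay above 2 of the Ethanol libraries, and the log2 fold change was 0.09 ± 0.06 (SE, unadjusted p = 0.187 in edgeR's quasi-likelihood test). Dnajb13, part of the axoneme of motile cilia, had a log2 fold change of -0.06 ± 0.13 (SE), while 8 of the 10 ciliary markers were lower at an unadjusted p below 0.05.

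The DNAJC genes, which share the J domain but have specialised tasks, included 1 of 26 with an unadjusted p below 0.05 (3.85%, against 4.15% of all genes). The median log2 fold change was 0.01 and the range -0.20 to 0.12. Dnajc21, a J protein of ribosome assembly (chr2:60419446-60446656, minus strand, gene 192210), measured 19.6, 18 and 17.9 CPM in Control and 16.1, 16.3 and 16 CPM in Ethanol libraries. All Ethanol libraries lay below all Control libraries, with means of 16.1 ± 0.155 CPM and 18.5 ± 0.963 CPM (SD, n = 3). The log2 fold change was -0.20 ± 0.07 (SE), with an unadjusted p of 0.0221 and an adjusted p of 1 in edgeR's quasi-likelihood test. It was -0.16 without Control 1 (unadjusted p = 0.0736) and -0.20 without Ethanol 1 (unadjusted p = 0.0603), and the likelihood ratio test gave an unadjusted p of 0.0527. Choroid plexus and cilia markers were lower in the same group, and their part in this difference was not tested. Dnajc25 was also lower in every Ethanol library, at 5.06 ± 0.413 CPM (SD, n = 3) against 5.63 ± 0.208 CPM, with a log2 fold change of -0.16 ± 0.11 (SE) and an unadjusted p of 0.178.

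The 4 genes of clathrin uncoating and synaptic vesicle maintenance (Hspa8, Dnajc5, Dnajc6 and Dnajc13) had 0 members at an unadjusted p below 0.05, a median log2 fold change of 0.04 and a range from -0.01 to 0.07. Dnajc5 measured 503, 494 and 466 CPM in Control and 536, 524 and 475 CPM in Ethanol libraries. Ethanol 1 and Ethanol 2 were above, and Ethanol 3 within, the Control range. The log2 fold change was 0.07 ± 0.08 (SE). Dnajc6 (auxilin) was at 374, 412 and 366 CPM against 439, 429 and 338 CPM. Ethanol 1 and Ethanol 2 were again the highest libraries and Ethanol 3 the lowest, and its log2 fold change went from 0.07 (0.065) to 0.18 without Ethanol 3 (unadjusted p = 0.0432 and adjusted p = 0.55 in edgeR's quasi-likelihood test). Ethanol 3, which held the lowest sum of neuron markers, was the lowest library for 25 of the 69 chaperone genes (36.2%, against 20.9% of all genes). Ethanol 2 was the highest for 21 of them (30.4%, against 18.4%). The part of the neuron markers in this was not tested.

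Of 9 ER chaperone and J protein genes, 0 had an unadjusted p below 0.05, with a median log2 fold change of 0.01 (0.009) and a range from -0.13 (Hspa5) to 0.09 (Dnajb12). Dnajc3, whose protein inhibits the kinase PERK and whose promoter holds the other ER stress element shown above, measured 21.6, 20.4 and 24.4 CPM in Control and 20.6, 19.2 and 21.5 CPM in Ethanol libraries. The groups overlapped, and in Dnajc3, as in Hspa5, Control 3 was the highest library. The log2 fold change of Dnajc3 was -0.12 ± 0.09 (SE).

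Without Ethanol 3, 5 of 70 chaperone genes (7.14%) had an unadjusted p below 0.05, a share below the background of 8.87% of all genes in that fit. These were Hspa1l, Dnajc21 and Hspb8, lower after ethanol, and Dnajc16 and Dnajc6, higher after ethanol. Their adjusted p-values lay between 0.453 and 0.55, and Dnajc16, Dnajc6 and Dnajc25 were named after their values were seen. In that fit 83 genes in all (0.452%) were under the adjusted threshold, and 0 of them were chaperone genes.

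The 57 tested partner genes of the chaperone network (HSP90 proteins, heat shock factors, co-chaperones, exchange factors, the TRiC chaperonin and others) had a median log2 fold change of -0.01 (-0.008). One of them, 1.75% of the list, had an unadjusted p below 0.05, a share below the background of 4.15% of all genes. This was Fkbp5, an HSP90 co-chaperone of the glucocorticoid receptor, at 51.3, 58.5 and 60.3 CPM in Control and 68.4, 71.5 and 75.1 CPM in Ethanol libraries. The lowest Ethanol library exceeded the highest Control library, and the log2 fold change was 0.34 ± 0.08 (SE), with an unadjusted p of 0.00227 and an adjusted p of 0.84 in edgeR's quasi-likelihood test. DESeq2 and the likelihood ratio test gave it an adjusted p of 0.122 and 0.108.

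Of the HSP90 genes, which take clients over from HSP70, 0 of 4 had an unadjusted p below 0.05. Hsp90ab1, the constitutive form, measured 1637, 1717 and 1650.4 CPM in Control and 1716, 1837 and 1521 CPM in Ethanol libraries. Ethanol libraries were the highest and the lowest, and the log2 fold change was 0.02 ± 0.10 (SE). The ER form Hsp90b1 (-0.05 ± 0.08) and the mitochondrial form Trap1 (0.03 ± 0.07) likewise had log2 fold changes within 1 SE of 0. Hsp90aa1, the inducible form, had only 20 to 45 counts per library (chr6:135107262-135112793). Another gene without a symbol on chr6:135044833-135050417 has exon blocks of equal length for 9 of the 11 blocks of Hsp90aa1 and had 0 to 2 counts, so reads shared by both may have been left out and the level of Hsp90aa1 is uncertain. Hsf1 had a log2 fold change of -0.13 ± 0.08 (SE) with overlapping groups, and -0.20 without Ethanol 3 (unadjusted p = 0.0302 and adjusted p = 0.519 in edgeR's quasi-likelihood test).

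Of the remaining symbols, most belonged to copies: 31 were Hspa8 pseudogenes, 12 Hspd1, 6 Dnajb6 and 3 Dnaja1. The 7 pseudogenes that passed had 0 members at an unadjusted p below 0.05, a median log2 fold change of -0.02 and a median SE of 0.32, against 0.09 for all members. Hspa8-ps22 had the highest level at 11.2 CPM per kb. Hspa8-ps11 had 1, 68 and 49 counts in Control and 29, 30 and 49 counts in Ethanol libraries, so that Control 1 alone was near 0. Reads from copies this alike cannot be assigned with certainty, and these values are uncertain. Dnajb6-ps4, annotated as protein coding, passed the count rule with 6 to 11 counts but was too low for the test.

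The other 64 symbols failed the count rule, 55 of them pseudogenes and 9 protein coding, and 28 had 0 counts in every library. The protein-coding ones were Hspa1b, Hspb3 (1 to 3 counts, a muscle form), Hspb9 (1 to 6 counts, a testis form), Dnajb7, Dnajb8, Dnajc5b (7 to 9 counts), Dnajc5g, Dnajc17l1 and Hspd1l2. Among the tested genes, Dnaja1 shares 96 exon bases on its strand with Mir207 and Dnajc8 shares 16 with Mir3583, which held at most 2 counts, and reads there were not counted for either gene. Dnajc8, a J protein of the spliceosome, was at 89.2 ± 4.08 CPM (SD, n = 3) in Control and 89.2 ± 0.953 CPM in Ethanol libraries.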

How the data were processed

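RNA-seq counts from 6 libraries of rat amygdala were used (3 Control, 3 Ethanol, 2 rats pooled per library). The authors deposited raw counts per gene: per the labels and file headers, single-end reads were aligned with STAR 2.7.0f to Rnor_6.0 and counted over exons with featureCounts (Subread 1.6.3) using the reverse-strand setting (2). Reads in several places or shared by genes were not counted. FastQC 0.11.8 and R 3.6.2 with edgeR and limma are also named in the submitters' processing notes. Replicates are pools of separate rats.

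Symbols and biotypes came from a RefSeq gene table (assembly GRCr8, used for names only, with positions as in the count files) by gene identifier for 29322 identifiers, and 9123 had none. Counts were filtered with filterByExpr (minimum count 10, minimum total 15), scaled by TMM (factors 0.9758 to 1.013) and compared with edgeR 4.0.16 (quasi-likelihood test, Benjamini-Hochberg over all 18141 genes, threshold 0.2) in R 4.3.3. CPM values are TMM-scaled. SE is the log2 fold change divided by the root of F. The test was also run on simulated counts, which held no differences in cell content between libraries and so cannot show how it deals with them. Alternatives were DESeq2 1.42.0, limma 3.58.1 (voom), the likelihood ratio test, RLE factors, library size alone, other filters, leaving out each library and a replicate block. Counting limits cover counting error only.

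Named genes are members with an unadjusted p below 0.05, the heat-inducible members, the highest level and largest change of each role list, partner genes with an unadjusted p below 0.05, the HSP90 genes, and members with overlaps or copies. Others were named for their role or after their values were seen. The members and lists were chosen with earlier results of these data known. The difference between libraries of a group exceeded sampling noise (chi-square per degree of freedom 14.3 to 67.6).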

Additional observations from a re-analysis of the deposited data

How the results depend on the processing

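Leaving out each library in turn gave 0 to 83 genes with an adjusted p below 0.2 over all genes, 1 to 5 chaperone genes with an unadjusted p below 0.05 and 1 to 5 partner genes at that p, where 3.1% to 8.87% of all genes had such a p. The highest counts and the highest share came without Ethanol 3. Without Ethanol 1, 4 genes passed over all genes. DESeq2 gave 75 genes over all genes and 1 chaperone gene, and the likelihood ratio test gave 77 and 1. The cause was not tested. The count of chaperone genes with an adjusted p below 0.2 was 0 in every alternative. The median log2 fold change of the chaperone genes ran from -0.02 (library size alone) to 0.036 (without Ethanol 3), where libraries of a group differed by 0.0337 (SD). Of single genes, Dnaja3 moved from 0.031 to 0.004 on library size alone, and Hspa1l and Dnajc21 lost an unadjusted p below 0.05 as given above.

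The labels do not pair Control and Ethanol libraries of the same number. Deviations of same-numbered libraries correlated at 0.0262, 0.389 and 0.211 over 14241 genes. Those of differently numbered libraries correlated at -0.427 to 0.305. With deviations taken from the mean of only 3 libraries per group, these values cannot decide whether the libraries are paired. A fit with the replicate number as a block gave 3 partner genes (Fkbp5, Sdf2l1 and Ahsa2) and 3 chaperone genes (Hspa1l, Dnajc21 and Hspb1) with an unadjusted p below 0.05 (background 5.6%), and 0 genes at an adjusted p below 0.2. The 95% interval of Hspa1a, with 6 to 25 counts, is wide, and how far depth or uncounted shared reads limit it was not tested.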
